A study of Mus musculus with 9 samples.

Results

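T cell and intraepithelial lymphocyte genes were followed in the jejunum of single mice. The genes were chosen by name: Cd3d, Cd3e, Cd3g, Cd8a, Cd4, Gzma, Gzmb, Itgae, Cd7 and Klrd1, each taken from every probe that carried its symbol. Of these 10 genes, 9 had a probe among the 15961 genes with a symbol on the array, with 10 probes in all because Cd3e had 2, and Cd8a was not analysed here. The data were 9 single-colour Applied Biosystems arrays read by chemiluminescence, each hybridised with RNA from the jejunum of a single male OF1 mouse, an outbred stock, at an age of 7 weeks. The mice belonged to the third generation kept on feed B, feed K or feed G, with 3 mice per feed, and by the labels the groups differed in the feed alone. The paper's methods say that these arrays dealt with a custom maize diet, without giving its letter. Neither the labels nor the methods say what the letters stand for or which feed was a control, and the hour of sampling was not randomized. Differences over mice were therefore compared between feeds and among genes, as the labels' design of 3 feed groups implies.

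The jejunal epithelium holds many lymphocytes between its enterocytes. Most of these intraepithelial lymphocytes are T cells, which carry the T cell receptor with its CD3 chains, often CD8 rather than CD4, the integrin that binds E-cadherin on epithelial cells, and granules with granzymes that can kill stressed or infected cells. CD4 T cells lie mainly in the lamina propria and in lymphoid follicles, where B cells are dense.

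All 9 arrays held the enterocyte genes: 9 of the 10 with a probe, Vil1 and Fabp1 among them, were detected on every array, where detected means that the ratio of signal to noise reached 3 and that no flag marked a failed spot. The share of probes detected per array ran from 33.7% to 48.1%, and it was lowest in feed B mouse 8. None of the T cell genes was detected on all 9 arrays. Gzma, Gzmb and Cd7 were detected on 8 arrays, Cd3d on 7, Cd3e, Cd3g and Cd4 on 5, Itgae on 4 and Klrd1 on 2. Signals below are log2 values after quantile normalization over the 9 arrays, and a signal of an undetected spot is a background reading. Because each probe has its own brightness, levels of different genes were not compared. In whole tissue, fewer cells of a type and less RNA per cell cannot be told apart.

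Cd3d, Cd3e and Cd3g encode the delta, epsilon and gamma chains that assemble with the T cell receptor and carry its signal into the cell. The 3 genes are neighbours on chromosome 9, and the windows of Cd3g and Cd3d printed here lay 854 bases apart with the genes transcribed away from each other. The 250 bases before the RefSeq start of 5 genes that varied together over the mice are shown, from the GRCm38.p6 assembly and written 5′ to 3′ on the strand of the gene. They are chr9:44980432-44980681 on the minus strand for Cd3g, chr9:44981536-44981785 on the plus strand for Cd3d, chr9:45009612-45009861 on the minus strand for Cd3e, chr13:113100982-113101231 on the minus strand for Gzma and chr14:56262335-56262584 on the minus strand for Gzmb. Capitals mark matches, on either strand, to 3 motifs chosen after the sequences were seen: TGTGGT, which Runx factors bind, CACCTG, an E-box of E proteins, and TGANTCA, the AP-1 motif.
Cd3g: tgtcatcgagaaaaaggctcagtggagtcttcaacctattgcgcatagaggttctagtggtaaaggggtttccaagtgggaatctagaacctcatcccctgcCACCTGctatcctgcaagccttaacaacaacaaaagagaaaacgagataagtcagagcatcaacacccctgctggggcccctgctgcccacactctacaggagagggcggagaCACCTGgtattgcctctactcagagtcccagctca
Cd3d: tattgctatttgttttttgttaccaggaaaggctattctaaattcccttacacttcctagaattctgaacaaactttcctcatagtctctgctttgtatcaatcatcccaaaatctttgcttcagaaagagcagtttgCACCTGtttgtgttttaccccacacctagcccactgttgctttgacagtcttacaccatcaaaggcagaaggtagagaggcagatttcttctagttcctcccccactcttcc
Cd3e: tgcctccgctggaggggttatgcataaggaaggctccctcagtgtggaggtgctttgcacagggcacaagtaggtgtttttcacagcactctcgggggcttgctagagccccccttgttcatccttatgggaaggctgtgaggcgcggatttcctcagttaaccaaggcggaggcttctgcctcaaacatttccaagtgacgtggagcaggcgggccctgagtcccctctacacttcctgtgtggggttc
Gzma: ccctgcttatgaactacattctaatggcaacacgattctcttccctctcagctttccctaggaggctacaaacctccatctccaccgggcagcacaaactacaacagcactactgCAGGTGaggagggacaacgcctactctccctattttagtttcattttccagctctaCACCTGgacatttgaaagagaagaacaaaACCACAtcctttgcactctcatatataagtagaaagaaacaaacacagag
Gzmb: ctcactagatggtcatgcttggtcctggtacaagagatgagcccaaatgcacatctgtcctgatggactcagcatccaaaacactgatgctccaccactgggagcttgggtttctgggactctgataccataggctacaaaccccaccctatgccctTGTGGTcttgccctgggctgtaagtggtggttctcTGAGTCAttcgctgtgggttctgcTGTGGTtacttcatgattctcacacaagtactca
Gzmb held 2 matches to TGTGGT and 1 to TGANTCA, Gzma held 1 match to TGTGGT and 2 to CACCTG, Cd3g held 2 and Cd3d 1 match to CACCTG, and Cd3e held none of the 3. No matches overlapped. Windows of the same length of all 32851 promoters held TGTGGT in 14.1%, CACCTG in 17.2% and TGANTCA in 6.75%. A match describes the letters only. Of the other genes, Cd8a also had a promoter entry, and Cd4, Itgae, Cd7 and Klrd1 had none.

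Cd3g varied most of the 3 chains. Its log2 signal was 7.43, 5.99 and 9.54 in feed B mice 7, 8 and 10, 8.55, 11.38 and 8.52 in feed K mice 1, 3 and 4, and 9.11, 10.29 and 7.26 in feed G mice 4, 8 and 11. Feed K mouse 3 was highest and feed B mouse 8 lowest, a range of at least 41.9-fold, and the 3 feeds overlapped. The gene was not detected in feed B mice 7 and 8, feed K mouse 4 or feed G mouse 11.

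Cd3d had a range of at least 3.92-fold. Its log2 signal was 8.93, 7.06 and 8.50 in feed B mice 7, 8 and 10, 8.24, 9.03 and 7.47 in feed K mice 1, 3 and 4, and 8.34, 8.89 and 7.47 in feed G mice 4, 8 and 11. The highest and the lowest mouse were those of Cd3g, and feed B mouse 8 and feed K mouse 4 were below detection. The group means of Cd3d were nearly the same, with 8.16 ± 0.98 (SD, n = 3) on feed B, 8.25 ± 0.78 on feed K and 8.23 ± 0.72 on feed G.

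Cd3e, averaged over its 2 probes, was 7.57, 5.28 and 7.88 in feed B mice 7, 8 and 10, 6.44, 8.75 and 6.86 in feed K mice 1, 3 and 4, and 6.74, 8.06 and 6.86 in feed G mice 4, 8 and 11. Feed K mouse 3 was again highest and feed B mouse 8 lowest. That lowest value lay in the background, so that the range was at least 8.61-fold. The probes were only partly alike, with r = 0.63 over the 9 mice (exact permutation test, two-sided, p = 0.0663). Probe 626085 spanned deposited signals of 40.1 to 1305 and probe 310556 only 52.7 to 266.5.

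Gzma and Gzmb encode granzymes A and B, serine proteases of cytotoxic granules, and they had the largest SD of the 9 genes over the mice. Gzma was 9.89, 5.54 and 10.92 in feed B mice 7, 8 and 10, 11.43, 13.31 and 8.47 in feed K mice 1, 3 and 4, and 10.82, 11.44 and 7.40 in feed G mice 4, 8 and 11. Feed K mouse 3 lay at least 203-fold above feed B mouse 8, the only mouse in which Gzma was not detected, and each feed held both a high and a low mouse. In deposited units the signal was 56.1 in feed B mouse 8, with a signal-to-noise ratio of 2.20, and 14839 in feed K mouse 3, with a ratio of 112. The latter spot carried a flag of 64, below the limit of 5000 for a failed spot, and the sources used here do not give its meaning.

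Gzmb was 9.61, 8.53 and 10.48 in feed B mice 7, 8 and 10, 11.73, 12.88 and 8.12 in feed K mice 1, 3 and 4, and 10.97, 11.17 and 7.70 in feed G mice 4, 8 and 11. Here feed G mouse 11 was lowest, 36.3-fold below feed K mouse 3, and it was detected there with a signal-to-noise ratio of 6.40. The span between mice on feed K alone reached from 8.12 to 12.88. Feed K mouse 3 was highest for both granzymes, and feed B mouse 8, feed K mouse 4 and feed G mouse 11 were the 3 lowest for both.

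**Figure D1:**
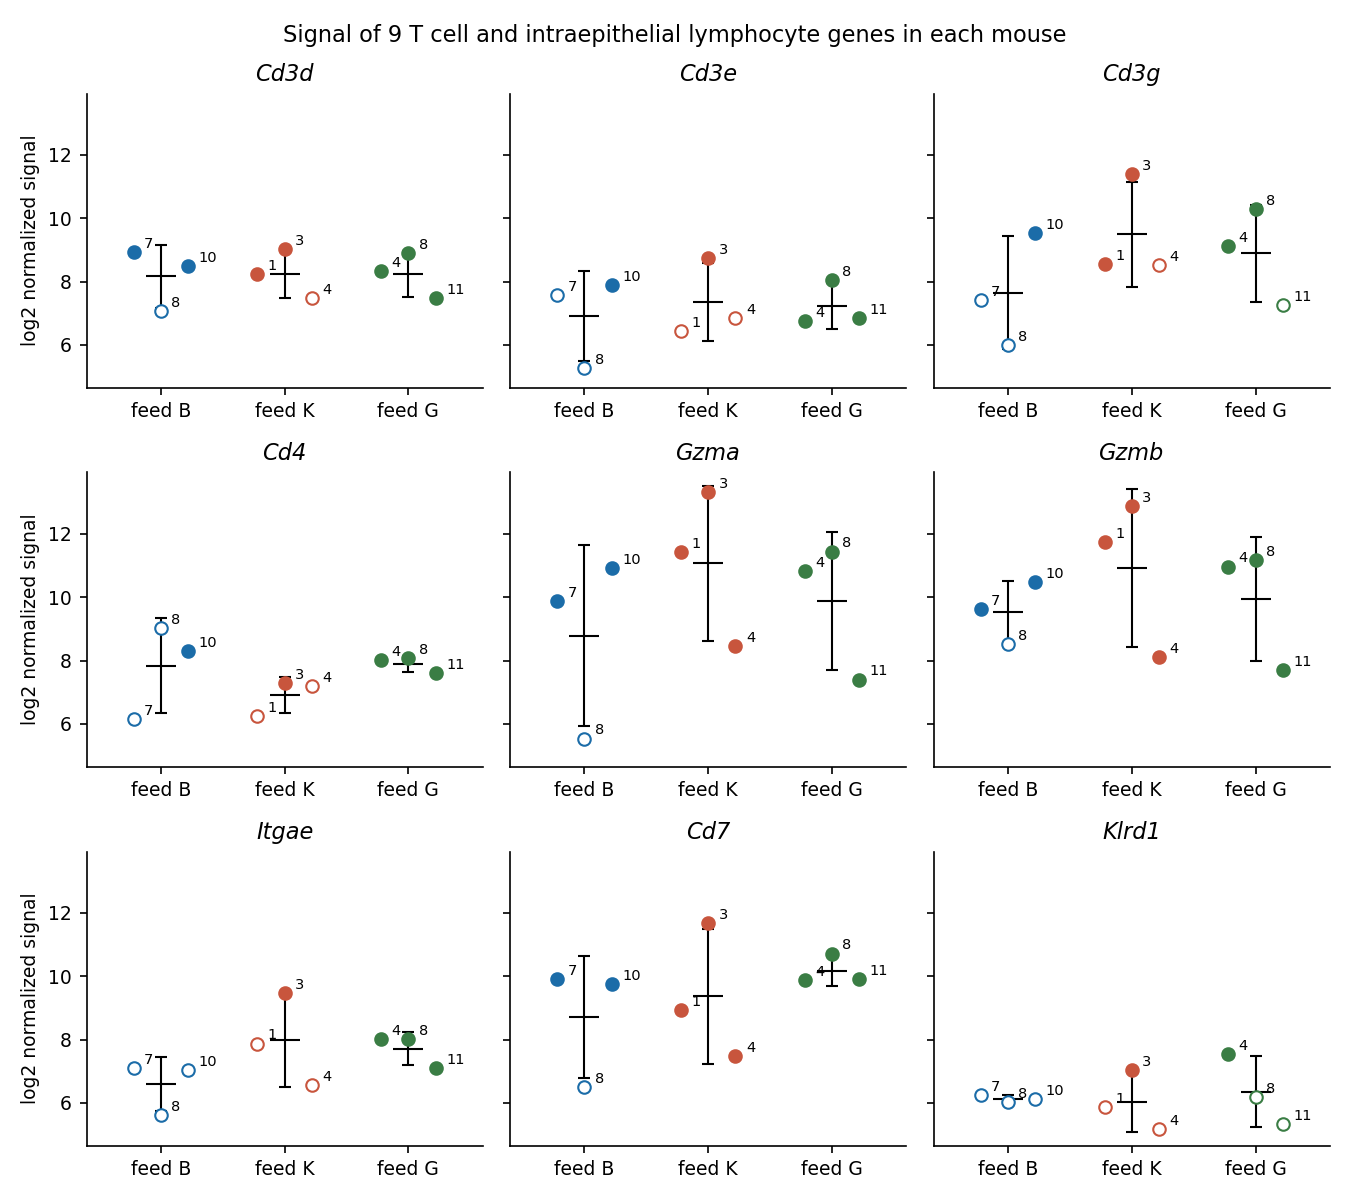
Log2 normalized signal (vertical axes, shared) of 9 genes by feed (horizontal axes). Each point is 1 mouse with its number, open where the gene was not detected, and the black bar and whiskers are the mean ± SD of 3 mice. Feed K mouse 3 is highest for 7 of the genes, the exceptions being Cd4 and Klrd1, and the feeds overlap for each gene except Cd4 between feeds K and G.

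Itgae encodes the alpha E chain of the integrin that holds intraepithelial lymphocytes on E-cadherin. Its log2 signal was 7.11, 5.62 and 7.05 in feed B mice 7, 8 and 10, 7.88, 9.48 and 6.57 in feed K mice 1, 3 and 4, and 8.00, 8.01 and 7.11 in feed G mice 4, 8 and 11. No feed B mouse was above detection, against 1 of 3 on feed K and 3 of 3 on feed G. These counts do not follow the signal alone. A signal of 7.11 missed detection in feed B mouse 7, with a signal-to-noise ratio of 2.30, and reached it in feed G mouse 11, with 3.78. The share of all probes detected was 33.7% to 43.6% on feed B arrays, 41.2% to 47.6% on feed K and 46.4% to 48.1% on feed G. The mean of the feed G mice was at least 2.15-fold above feed B. The mean of the feed K mice was 2.59-fold above feed B, with background readings of feed K counted as they were, so that this is no lower bound. It rests on feed K mouse 3, since the other feed K spots were background readings and mouse 4 lay below feed B mice 7 and 10. Both values set the brighter group's mean against, per feed B array, the lowest detected signal or the spot's own, whichever was higher. The ranges of the feeds overlapped, as the plot of signals by mouse shows.

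Cd7 encodes a surface protein of T cells and natural killer cells. It was 9.91, 6.51 and 9.74 in feed B mice 7, 8 and 10, 8.94, 11.67 and 7.48 in feed K mice 1, 3 and 4, and 9.86, 10.71 and 9.92 in feed G mice 4, 8 and 11. The feed G mice lay close together at 10.16 ± 0.48 (SD, n = 3), inside the wider ranges of feeds B and K. Feed K mouse 3 and feed B mouse 8 were again the extremes, at least 35.7-fold apart, since Cd7 was not detected in the latter.

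Klrd1, which encodes CD94, a chain of receptors on natural killer cells and some cytotoxic T cells, was detected only in feed K mouse 3 and feed G mouse 4. The other 7 mice, with signals between 5.16 and 6.24, were in the background, and Klrd1 entered no test. Of the genes that mark natural killer cells, Ncr1, Klrb1c and Klre1 were detected on 0 arrays, and Klra8 on 3.

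Cd4, which encodes the co-receptor of helper T cells, went its own way. It was 6.15, 9.03 and 8.31 in feed B mice 7, 8 and 10, 6.26, 7.29 and 7.20 in feed K mice 1, 3 and 4, and 8.02, 8.08 and 7.61 in feed G mice 4, 8 and 11. Its highest value was in feed B mouse 8, the mouse lowest for the CD3 genes, although the spot missed detection there, with a signal-to-noise ratio of 2.90. The feed G mice all lay above the feed K mice. The ranges of feeds K and G did not overlap for this 1 of 8 tested genes, while 13.8% of all 9759 genes compared had such a gap between K and G. For feeds B and K the count was 0 of 8 against 10.0% of all genes, and for feeds B and G it was 0 of 8 against 10.9%.

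No T cell gene differed between the feeds beyond the spread of the mice. The 8 genes detected on at least 3 arrays were tested with the moderated F test of limma over all 9856 such genes, and 0 passed an adjusted p of 0.05, as did 0% of all genes. Adjusted p-values of the 8 genes lay between 0.893 (Itgae) and 0.998 (Cd3d). Without adjustment, 0 of the 8 had p below 0.05, against 5.45% of all genes, and the exact permutation F test over the 280 splits of the mice also called 0. The largest fitted difference was that of Gzma, whose log2 signal was 2.28 ± 1.75 (SE) higher on feed K than on feed B, with an adjusted p of 0.863 by limma. That value was 0.66 without feed B mouse 8 and 1.13 without feed K mouse 3.

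The other fitted differences were of the same order as their errors. By limma, feed K minus feed B was 1.83 ± 1.16 (SE, log2) for Cd3g, 1.38 ± 0.72 for Itgae and 1.37 ± 1.34 for Gzmb. It was 0.44 ± 0.82 for Cd3e and 0.08 ± 0.60 for Cd3d, and leaving out feed B mouse 8 turned both to -0.40 and -0.49. Cd7 differed most between feeds G and B, by 1.45 ± 1.18, and Cd4 between feeds G and K, by 0.99 ± 0.67. Single mice moved these values too: that of Cd7 was 0.34 without feed B mouse 8. Without feed K mouse 3, feed K minus feed B was 0.84 for Cd3g, 0.61 for Itgae and 0.39 for Gzmb, and without feed K mouse 4 it was 2.12 for Itgae, 2.76 for Gzmb and 3.60 for Gzma. For Cd3g it was 1.02 without feed B mouse 8, 2.78 without feed B mouse 10 and -0.051 with spots whose signal is below their noise left out, and for Gzmb it was 0.85 without feed B mouse 8. The median of the 8 genes for feed K minus feed B was 1.01, compared with 0.05 over all genes tested.

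The spread over all 9 mice was wide for these genes. The SD of log2 signal was 2.39 for Gzma, 1.76 for Gzmb, 1.65 for Cd3g, 1.58 for Cd7, 1.09 for Itgae, 1.03 for Cd3e, 0.94 for Cd4, 0.75 for Klrd1 and 0.72 for Cd3d. Their median of 1.09 compared with 0.38 over the 8680 genes detected on at least 5 arrays, of which 95% lay below 1.09. For the 7 T cell genes that also met this filter the median was 1.58. No T cell gene was detected on all 9 arrays, as 5992 genes were, with a median SD of 0.29. Genes detected as rarely as the T cell genes were not compared separately. Ranges of 10-fold or more over the mice were met by 5 of the 7 T cell genes detected on at least 5 arrays, namely Gzma, Cd3g, Gzmb, Cd7 and Cd3e, against 5.18% of all such genes, with background readings at the low end counted as they were. The share of the variance between feed means had a median of 15.8% for the 9 genes, and 23.3% over all genes. Such a share is not adjusted for the number of groups and is positive even where the feed has no effect. In feed B mouse 8, undetected spots set the low end for most of them, and the median SD without that mouse was 0.94.

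Over the mice, 6 of these genes followed each other. Among the 7 genes detected on at least 5 arrays, 13 of 21 pairs had a Pearson correlation with an adjusted p below 0.05 (exact permutation tests over all orders of the 9 mice, two-sided, adjusted over the 21 pairs), and all 13 were among the 15 pairs without Cd4. In those 15 pairs r lay between 0.57 and 0.91, with a median of 0.79. With Spearman's rho 2 pairs passed, Gzma with Gzmb and Cd3g with Gzma. The plot of correlations gives each pair.

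Gzma and Gzmb had the highest correlation, with r = 0.91 and rho = 0.92 (exact permutation p = 0.000532 and adjusted p = 0.0103 for r). It was 0.98 without feed B mouse 8 and feed G mouse 11, the mice farthest from the median of Gzma. Cd3g and Gzma had r = 0.90 and rho = 0.93 (exact permutation, adjusted p = 0.0103 for r), and r = 0.72 without feed B mouse 8 and feed K mouse 3. Cd3d and Gzma had r = 0.89 and rho = 0.78 (exact permutation, adjusted p = 0.0103 for r), and r = 0.71 without feed B mouse 8 and feed G mouse 11.

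Pairs among the CD3 chains were all called, with r = 0.84 for Cd3d with Cd3e, 0.83 for Cd3e with Cd3g and 0.73 for Cd3d with Cd3g. Cd7 had r = 0.86 with Cd3e, 0.84 with Cd3d, 0.79 with Gzma and 0.75 with Cd3g, all called, and 0.65 with Gzmb, not called. Cd3e with Gzmb, at r = 0.57, was the other pair without Cd4 that did not pass. Cd4 had r between -0.39 and -0.09 with the 6 others, and none of these 6 pairs passed. Without feed B mouse 8 and feed K mouse 3, Cd4 with Cd3g had r = 0.62. When any 1 mouse was left out, r of Cd4 reached up to 0.43 with Cd3g, 0.26 with Cd3e, 0.25 with Cd7 and 0.03 with Gzma. The sign of these pairs thus rested on single mice, while r reached at most -0.05 with Cd3d and -0.0009 with Gzmb.

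**Figure D2:**
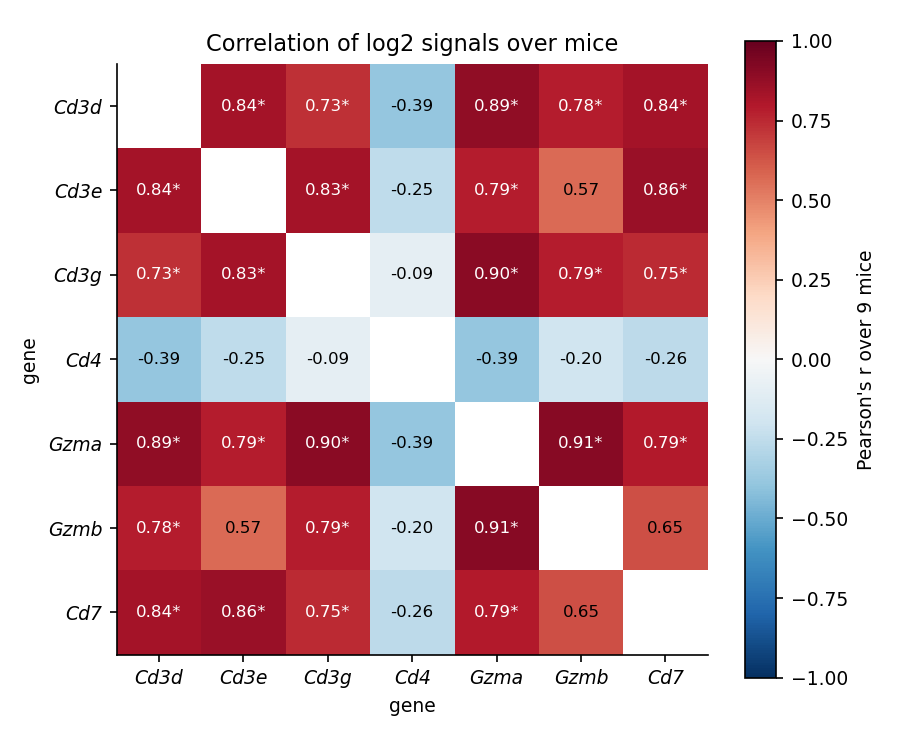
Pearson's r of log2 normalized signals over 9 mice for each pair of 7 genes (both axes), from -1 in blue to 1 in red. An asterisk marks the 13 pairs with an adjusted p below 0.05 in exact permutation tests, none of which includes Cd4.

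How many pairs passed rested on a few mice. Without feed B mouse 8 only Gzma with Gzmb passed, and without feed K mouse 3 only the pairs of Gzma with Gzmb, Cd3g and Cd3d did, although the 15 correlations kept medians of 0.73 in both cases. Without feed G mouse 8, 6 pairs passed. Leaving out the 2 mice farthest from the median of a pair's first gene lowered the median of the 15 to 0.65, with a range from 0.15 to 0.98. With the mean of each feed subtracted the median of the 15 was 0.84, compared with 0.79 before, but no pair passed after adjustment in the exact permutation tests within feeds. Feed B mouse 8 also had the lowest share of detected probes.

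The share of detected probes itself had r = 0.77 with Cd3g and 0.76 with Cd7 (exact permutation p = 0.0153 and 0.0182, adjusted p = 0.319 for both), and 0.63 with both Gzma and Cd3e. Its part in the relations among the genes was not tested. Of 35 pairs of the 7 genes with this share or with markers of other cells, namely Ms4a1 for B cells, Vil1 for enterocytes, Myh11 for smooth muscle and Csf1r for myeloid cells, 0 passed after adjustment and 2 had p below 0.05 in exact permutation tests.

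Other genes of cytotoxic lymphocytes varied with them. Each gene was set against the mean of the centred log2 signals of the 7 T cell genes, and the correlations with that mean are descriptions over 9 mice without a test. Of the 8 intraepithelial and cytotoxic lymphocyte genes detected on at least 5 arrays, 4 had r of 0.8 or more. The share was 0.496% over the 8673 genes so detected outside the 7 T cell genes, which include these 8. The median r was 0.81 for the 8 and 0.02 for the 8673. The 4 were Ctsw, a cathepsin of cytotoxic cells, with r = 0.97, Ccl5, a chemokine that attracts T cells, with 0.93, Nkg7, a granule protein, with 0.92, and Cd244, a receptor of killer cells, with 0.86. Leaving out any 1 mouse kept these 4 correlations between 0.793 and 0.995.

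Ccl5 was detected on all 9 arrays, at 10.79, 9.42 and 12.47 in feed B mice 7, 8 and 10, 11.34, 13.96 and 8.39 in feed K mice 1, 3 and 4, and 12.17, 12.59 and 8.56 in feed G mice 4, 8 and 11. It spanned 47.3-fold, with feed K mouse 3 highest and feed K mouse 4 lowest, so that mice on the same feed held both ends. Fcer1g and Cd160 had r of 0.76 and 0.68 and Tyrobp 0.66. Prf1, which encodes the pore-forming perforin, was the only 1 of the 8 with a negative r, at -0.34, and was detected on 7 arrays. Among genes of the list detected on fewer than 5 arrays, r ran from -0.61 for Fasl to 0.78 for Cxcr6. Cd8b1, the partner chain of CD8, was detected on 2 arrays only.

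**Figure D3:**
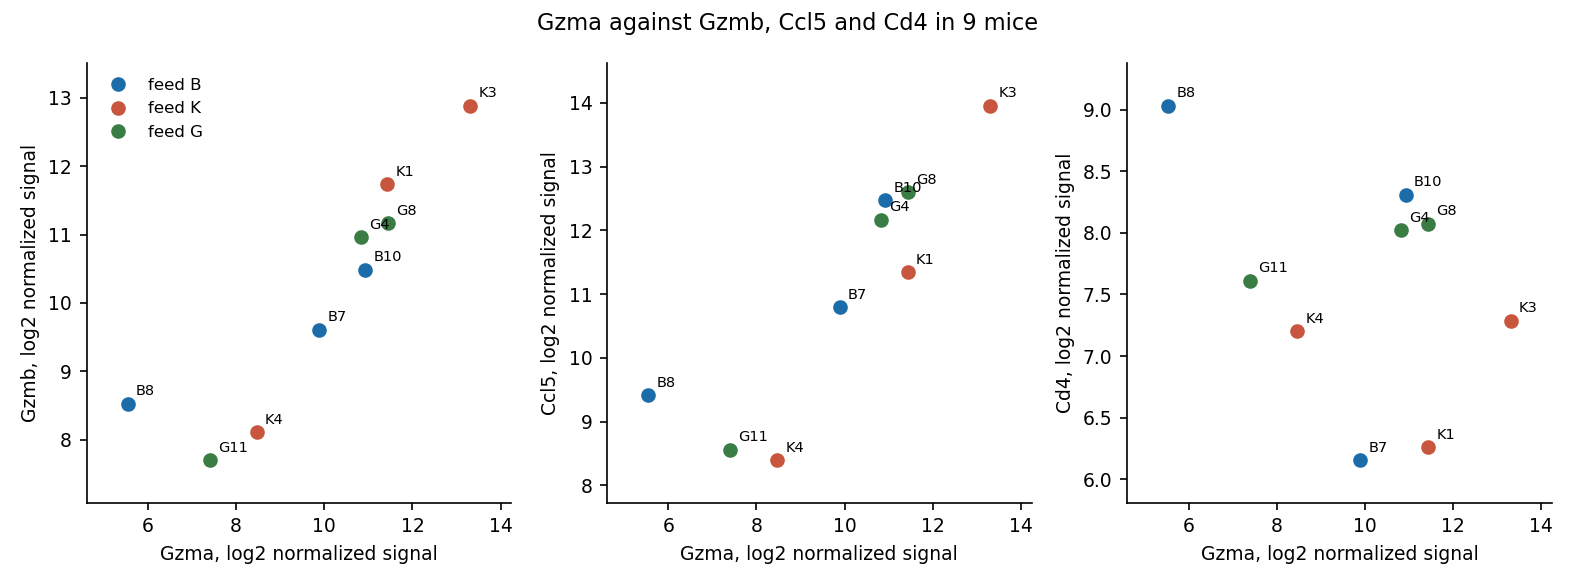
Log2 normalized signal of Gzma (horizontal axes) against Gzmb, Ccl5 and Cd4 (vertical axes, each with its own scale) in 9 mice, 1 point per mouse labelled by feed letter and number. All but Cd4 are lowest in feed B mouse 8, feed K mouse 4 and feed G mouse 11 and highest in feed K mouse 3, while Cd4 has r = -0.39 with Gzma.

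Of the 8 genes of T cell receptor signalling detected on at least 5 arrays, 0 had r of 0.8 or more, and the median r was 0.17. Among genes of this list detected on fewer arrays, Cd6 (3 arrays) had r = 0.81 and Zap70 (4 arrays, as many as Itgae) had r = 0.80, while Sh2d1a and Trat1, detected on 0 arrays, had 0.84 and 0.82. These 4 genes were named after their values were seen, and the signals of Sh2d1a and Trat1 were background readings. The others below 5 arrays with values in all mice had lower r. They were Cd96 (0.42), Tcf7 (0.29), Lcp2 (0.15), Gata3 (0.01), Ubash3a (-0.05), Thy1 (-0.08), Cd28 (-0.27), Themis (-0.34) and Lat (-0.48). Of the 8 genes, Lck, the kinase that starts the signal, had 0.61, Lef1, a transcription factor of T cells, 0.41, and Bcl11b, a factor of T cell identity, -0.61. Bcl11b and Fyn, a kinase related to Lck, were detected on all 9 arrays with ranges of 2.35-fold and 2.44-fold, and Ptprcap spanned 1.90-fold. Cd247, the zeta chain that completes the CD3 complex, was detected on 1 array. Of 10 helper and regulatory T cell genes, 6 were detected on no array, Cd40lg and Foxp3 among them.

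Of the 6 epithelial ligand genes with a probe, Cdh1 ran opposite to the T cell genes. Cdh1 encodes E-cadherin, to which the integrin with the Itgae chain binds. It was 14.19, 14.41 and 13.89 in feed B mice 7, 8 and 10, 14.19, 13.84 and 14.49 in feed K mice 1, 3 and 4, and 14.15, 13.99 and 14.26 in feed G mice 4, 8 and 11. The range was small, at 1.57-fold, and feed K mouse 3 was lowest. Its r with the mean of the T cell genes was -0.91, between -0.94 and -0.87 when any 1 mouse was left out, and 1.26% of all 8673 genes had r of -0.8 or less. H2-T23, which encodes Qa-1, the ligand of the receptor with CD94, had r = 0.50 and spanned 17.8-fold, and Ccl25, Il15 and H2-T3 had r between -0.14 and 0.05. Tnfrsf14, detected on 5 arrays, had r = -0.19 and spanned at least 19.3-fold.

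Markers of other cells were compared mouse by mouse. Feed K mouse 3 was highest for 6 of the 7 T cell genes detected on at least 5 arrays, against 5.97% of all genes, and feed B mouse 8 was lowest for 5 of 7, against 16.0%. The B cell genes took another course: feed K mice 1 and 3 were the lowest pair for 7 of 8 of them, against 2.12% of all genes. The mice in these counts were picked after the same values were seen, and genes of a list varied together. The counts are therefore descriptions without a test. Ms4a1 was 7.95 and 7.53 in feed K mice 1 and 3 and between 9.04 and 10.31 in the other 7. The median r of the 8 B cell genes with the mean of the T cell genes was -0.38, and 7 of the 8 lay below 0.

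The summed signal of the B cell genes ran from 3956 to 7520 on feed B, from 1278 to 7369 on feed K and from 3461 to 7039 on feed G, all 3 ranges overlapping. Jchain, the joining chain made by plasma cells, had r = 0.66, while the plasma cell list had a median of 0.07. The median r was -0.07 for 9 enterocyte genes, 0.35 for 8 smooth muscle genes and 0.30 for 5 myeloid genes, and none of these genes reached 0.8. The myeloid genes were split. Csf1r, Lyz2 and Itgam had r between 0.30 and 0.32, while Cd14 had -0.83 and Adgre1 -0.68, both detected on all 9 arrays. The parts that B cells, epithelium or muscle in a sample play in the T cell values were not tested. Of mast cell genes, Mcpt1, a protease of mucosal mast cells, was detected on 3 arrays and was highest in feed K mouse 3, at 12.01.

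**Figure D4:**
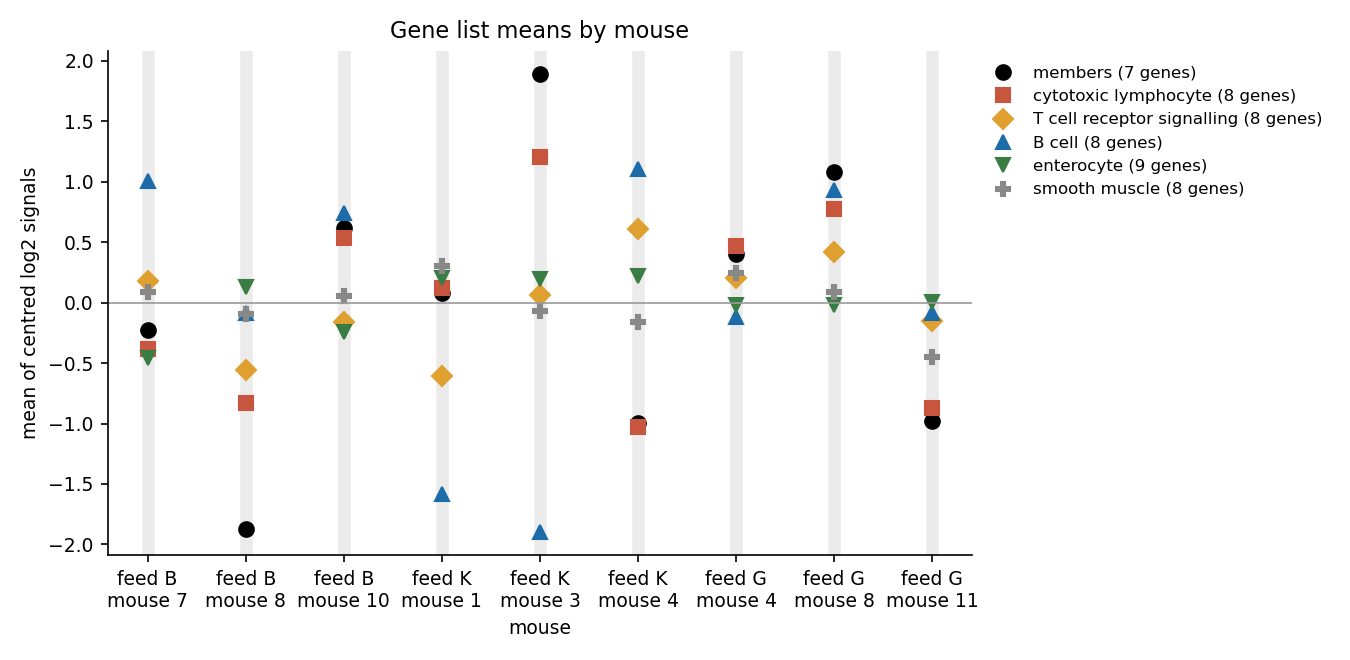
Mean of centred log2 normalized signals (vertical axis) of 6 gene lists in each of 9 mice (horizontal axis), over the genes detected on at least 5 arrays. Members are the 7 T cell genes, which are lowest in feed B mouse 8, feed K mouse 4 and feed G mouse 11 and highest in feed K mouse 3, as the cytotoxic lymphocyte genes are, while B cell genes are lowest in feed K mice 1 and 3 and enterocyte genes stay between -0.46 and 0.22.

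Between feeds, these lists gave no called gene either. By limma, 0 of 12 T cell receptor signalling genes, 0 of 13 cytotoxic lymphocyte genes, 0 of 6 epithelial ligands, 0 of 2 helper T cell genes, 0 of 9 B cell genes, 0 of 8 plasma cell genes, 0 of 9 enterocyte genes, 0 of 8 smooth muscle genes, 0 of 7 myeloid genes, 0 of 3 mast cell genes and 0 of 1 natural killer cell gene passed. Without adjustment, Slc5a1 of the enterocyte genes and Mcpt2 of the mast cell genes had p below 0.05 in the F test. The median difference of feed K minus feed B was -1.27 for the B cell genes and 0.41 for the cytotoxic lymphocyte genes, compared with 0.05 over all genes.

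The 10 genes most like the T cell genes among those detected on all 9 arrays were Ccl5, Ifitm1, Bmp2, 9930028C20Rik, 1700019P01Rik, Cdca4, 1810074P20Rik, Psma6, Zfp216 and Cryge, by their r with the mean of the T cell genes over the 9 mice, from 0.93 to 0.84. Ifitm1, an interferon-induced membrane protein, ran over 4.11-fold and Bmp2, a growth factor, over 3.82-fold. Psma6, a proteasome subunit, and Zfp216 spanned 1.50-fold and 1.55-fold only, and the ranges of the 10 apart from Ccl5 reached at most 5.20-fold.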

How the data were processed

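Jejunal RNA of 9 mice was hybridised to 1 array each. The authors deposited, for each array, signal intensity values corrected for background and spatially normalized, with a signal-to-noise ratio score and a quality flag. The deposited series table holds the assay-normalized intensity of the same spots. The submitters' processing notes name RMA, and a software version is not given in the sources used here. The labels and the methods name different RNA extraction kits.

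Failed spots, whose flag exceeds 5000, were removed from the deposited signal, which was then quantile normalized and log2 transformed, and probes of a gene were averaged. Genes detected on at least 3 arrays were tested for the feed with limma 3.58.1 (R 4.3.3, lmFit and eBayes, Benjamini-Hochberg adjustment at 0.05). For correlations, p-values come from exact permutation of the mice (Python 3.11.15, numpy 2.4.6, pandas 2.3.3, scipy 1.17.1). The procedures were tested on simulated data. Each mouse counts as 1 replicate, and the number of arrays and signals near background limit the precision.

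The genes and all lists were chosen with earlier results of these data known. The design called for relations among genes detected on all 9 arrays. Since none was, genes detected on at least 5 arrays were used, and Ms4a1 replaced Cd79b, which was chosen after seeing the data. Of each other list, its first gene and up to 3 genes (6 for T cell receptor signalling, cytotoxic lymphocytes and epithelial ligands) detected on all 9 arrays with the largest SD were named, with the 10 genes most alike. Further list genes were named after their values were seen. Symbols of list genes were matched by name, then by RefSeq accession, and promoters are RefSeq's. The alternatives tried were the series table, median scaling, a gene's brightest probe, failed spots kept, a noise filter (no spot whose signal falls below 1 times its noise), other filters, an unmoderated and an exact permutation F test, subtracting feed means, and leaving out each mouse. Some genes of the lists are not reported here.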

Additional observations from a re-analysis of the deposited data

Results flagged for a closer look

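Of 50 genes examined over the 9 mice, 4 had a lowest or highest mouse set apart from the nearest other by more of the whole range than Dixon's 95% limit for 9 values, where chance flags about 1 in 20, or 2.50 genes. None was a T cell gene of the list of 10. Ptprcap, a partner of CD45, was lowest in feed K mouse 1, with a gap of 0.504 of its range. Lyz2, the lysozyme of macrophages, was lowest in feed G mouse 11, with a gap of 0.585. The mast cell protease genes Mcpt1 and Tpsb2 stood out in different mice, Mcpt1 as highest in feed K mouse 3 (0.508), where 7 T cell genes were also highest, and Tpsb2 as lowest in feed K mouse 1 (0.563).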

How the results depend on the processing

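No T cell gene passed the feed test under any of the 18 alternatives run, and adjusted p-values of single genes stayed between 0.436 and 0.999. Over all genes the F test called 0, but 3 with the noise filter, which drops spots whose signal is below their noise, and 1 without moderation. It called 0 to 3 when 1 mouse was left out, with 3 without feed B mouse 10. With the noise filter feed G minus feed B and feed G minus feed K each had 3 genes. Without 1 mouse, feed K minus feed B had 0 to 10 genes and feed G minus feed B 0 to 3, both highest without feed B mouse 10.

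Leaving out 1 mouse, feed K minus feed B lay between -0.49 and 0.48 for Cd3d and between -0.40 and 0.93 for Cd3e. It was below 0 without feed B mouse 8 (lowest) and without feed K mouse 3 (-0.30 and -0.24). With the noise filter it was -0.26 for Cd3e and -0.051 for Cd3g. The causes were not tested.

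Of 21 pairs of T cell genes, 13 passed. Leaving out 1 mouse gave 1 to 13, with 1 without feed B mouse 8, 3 without feed K mouse 3 and 6 without feed G mouse 8. It was 7 with the noise filter and 0 with feed means subtracted, where fewer orders of the mice can be drawn. With genes detected on at least 7 arrays 5 of 6 pairs passed. Of 35 pairs with other measures 0 passed, 2 with the series table and 0 to 1 without 1 mouse, with 1 without feed B mouse 7, feed K mouse 3 or feed G mouse 11. The median SD stayed between 0.94 and 1.51. Signals near background limit what can be said of Itgae, Klrd1 and Cd3e. No paired analysis was possible because the replicate numbers of any 2 feeds share fewer than 2 values.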
